A study of Mus musculus with 12 samples.

Results

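The genes described here are 32 genes of fatty acid oxidation and known targets of PPARA, taken by symbol from a table of 54532 genes measured by RNA sequencing in 12 libraries of mouse primary hepatocytes. All 32 symbols were found, each on 1 row. The hepatocytes came from 6-week-old G3bp1-Flox or G3bp1-HKO mice, and cells of each genotype were labelled BSA or PA, so that each pairing of genotype and label makes a group of 3 libraries, 4 groups in all. The study set out to learn how G3BP1, which binds RNA in stress granules, bears on NASH, a fatty liver disease with inflammation. The labels do not spell out HKO, BSA or PA. The sources used here give no dose or duration of PA and no Cre driver behind HKO. They also do not say if the libraries of a group came from different mice, so the p-values cover only the spread seen between these libraries.

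Long-chain fatty acids reach the mitochondrial matrix as carnitine esters, made by carnitine palmitoyltransferase 1 on the outer membrane and turned back into acyl-CoA by carnitine palmitoyltransferase 2 on the inner membrane. In the matrix, acyl-CoA dehydrogenases, hydratases, hydroxyacyl-CoA dehydrogenases and thiolases shorten the chain in repeated rounds, and electron transfer flavoprotein passes the electrons on to the respiratory chain. Peroxisomes run a parallel pathway for very long chains, and microsomal CYP4A enzymes oxidise the far end of the chain. PPARA is a nuclear receptor that binds fatty acids, pairs with RXR and switches on many of these genes in the fasting liver.

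The label of HKO was checked first on G3bp1 itself, which lay between 37.7 and 45.7 FPKM in the 6 Flox libraries and between 7.03 and 8.497 FPKM in the 6 HKO libraries. FPKM is the number of fragments per kilobase of gene length, scaled to a library size that the authors set. Reads in genes, computed back from FPKM, came to 15.02 to 18.42 M per library, with M for mega, of which the 32 genes held 0.141 to 0.193%. The hepatocyte label was checked on 11 hepatocyte markers, which were above 0 in every library and summed to 10436 to 11462 FPKM in Flox and 16792 to 31119 FPKM in HKO. The sum of 14 Kupffer cell and macrophage markers was 1929 to 2363 FPKM in Flox and 86.1 to 158 FPKM in HKO. The share of reads from mitochondrially encoded genes was 2.21 to 4.34% in Flox and 4.10 to 8.20% in HKO. Both HKO libraries numbered 1 stood apart from the other HKO libraries for several of the 32 genes, and counts are given below with and without them. Leaving out libraries that stand apart for these same genes can by itself narrow their spread. The p-values without them are therefore descriptive and add no separate evidence.

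Sequence is shown for the genes at which neighbouring members or a PPARA-type element meet the results. PPARA with RXR is known to bind AGGTCANAGGTCA, a direct repeat of the hexamer AGGTCA with 1 base between the copies. Of the 32 genes, 25 had an entry in the RefSeq promoter table (GRCm38.p6, 250 bases before to 50 after the start), with 26 promoters in all. The repeat was searched on both strands, and a promoter with both copies also counts for the hexamer. At up to 2 mismatches it was found in 1 of the 26 promoters (3.85%), that of Etfa, and in 3.86% of all 32851 promoters in the table. The exact hexamer was found in 3 of the 26 (11.5%), those of Cpt1a, Acadvl and Acadm, against 16.3% of all promoters. A match describes letters, and a missing one says only that these letters are not in this window. The 250 bases before the start of Etfa (chr9:55512244-55512493, minus strand) and of Cpt1a (chr19:3323051-3323300, plus strand) follow, 5′ to 3′, with the element in capitals, in reverse orientation in both. They are shown because Etfa had the nearest match to the repeat and Cpt1a is the entry step of the pathway.
Etfa: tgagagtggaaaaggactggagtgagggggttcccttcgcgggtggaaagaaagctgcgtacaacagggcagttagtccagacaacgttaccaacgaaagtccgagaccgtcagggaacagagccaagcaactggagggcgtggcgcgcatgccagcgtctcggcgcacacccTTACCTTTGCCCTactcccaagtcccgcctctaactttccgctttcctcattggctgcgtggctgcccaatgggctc
Cpt1a: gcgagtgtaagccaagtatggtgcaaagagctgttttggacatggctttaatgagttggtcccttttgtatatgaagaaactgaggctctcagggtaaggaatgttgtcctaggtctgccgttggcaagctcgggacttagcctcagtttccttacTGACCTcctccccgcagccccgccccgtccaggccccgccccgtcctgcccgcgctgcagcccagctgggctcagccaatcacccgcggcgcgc

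Several of the 32 genes are neighbours in the genome. Hadha and Hadhb, the subunits of the mitochondrial trifunctional protein, lie head to head on chromosome 5 with their deposited starts 86 bases apart. Their RefSeq starts lie 273 bases apart, at 30154980 for Hadha and 30155253 for Hadhb, so the stretch shown is set by the deposited starts and lies between the RefSeq starts as well. The 85 bases between them (chr5:30155163-30155247, plus strand, GRCm38.p6) are 69.4% G and C, hold 9 CpG pairs and are shown because the shared stretch belongs to a pair of which 1 gene passed in HKO against Flox with PA.
Hadha to Hadhb: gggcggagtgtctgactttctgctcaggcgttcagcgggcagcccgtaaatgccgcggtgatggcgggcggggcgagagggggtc

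Cyp4a14 (chr4:115486200-115496142) and Cyp4a10 (chr4:115518264-115533649) start 22122 bases apart, Acot2 and Acot1 start 21629 bases apart on chromosome 12, and Acaa1b and Acaa1a start 182583 bases apart on chromosome 9. These last 3 pairs are near-identical copies or close paralogs, and the sources used here do not say how the authors assigned reads that match both members, so the split within each pair is uncertain. For Cyp4a10 the same limit extends to the other genes of its Cyp4a cluster.

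Levels differed widely between the 32 genes. Averaged over the 12 libraries, Acaa2, the mitochondrial thiolase of the last step, was highest at 213 FPKM, followed by the peroxisomal thiolase Acaa1b at 95.4 FPKM and the enoyl-CoA isomerase Eci1 at 69.9 FPKM. The lowest were the thioesterase Acot1 at 0.292 FPKM, the ketone body enzyme Bdh1 at 0.904, the branched-chain dehydrogenase Acadsb at 0.934 and Ppara itself at 0.999. These 4 fell below the filter of a mean of 1 FPKM and were not tested, which leaves 28 of the 32 among 9743 tested genes. Tests were made with limma on log2(FPKM + 1), a scale that understates the change of genes near 1 FPKM, and a gene is said to have risen or fallen at an adjusted p under 0.05. The summed level of all 32 genes was 555 ± 27.7 FPKM (SD, n = 3) with BSA and 616 ± 29.2 with PA in Flox, 759 ± 50.04 with BSA in HKO and 902 ± 86.9 with PA in HKO. Acaa2 alone made up 136 ± 19.3 FPKM of the sum in Flox with BSA and 323 ± 35.8 in HKO with PA.

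**Figure D1:**
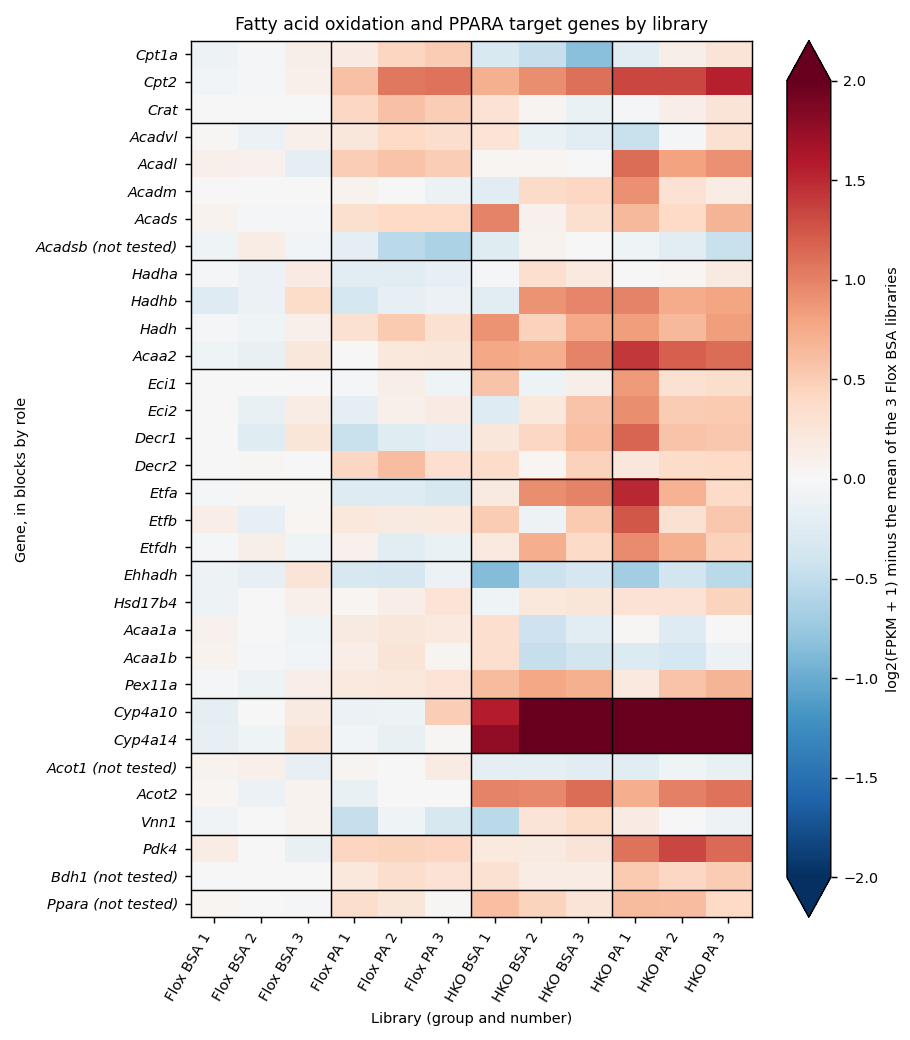
Level of each of the 32 genes (rows, in blocks by role) in each of the 12 libraries (columns), as log2(FPKM + 1) minus the mean of the 3 Flox libraries with BSA. Red is higher and blue lower, and the scale ends at 2 in either direction. Cyp4a10 and Cyp4a14 are red across the 6 HKO libraries, and Cpt2 is red in 9 libraries outside Flox with BSA.

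The first comparison asks what PA did in Flox cells. Cpt2, carnitine palmitoyltransferase 2, and Acadl, the long-chain acyl-CoA dehydrogenase, rose, no gene of the set fell, and 26 of 28 did not pass. Among all 9743 genes 1.29% were higher and 0.913% lower, and the median log2 difference was 0.15 over the 28 genes and 0.01 over all. Cpt2 was at 6.10, 6.12 and 6.87 FPKM with BSA and at 10.1, 14.3 and 14.6 FPKM with PA. The groups did not overlap, and the difference was 2.04-fold (log2 0.91, SE 0.15, adjusted p = 0.00737). Acadl was at 15.9, 15.9 and 12.95 FPKM with BSA and at 21.2, 22.5 and 21.2 FPKM with PA. All 3 PA libraries lay above the BSA libraries, at 1.45-fold (log2 0.51, SE 0.12, adjusted p = 0.0494).

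Pdk4, the kinase that shuts pyruvate dehydrogenase and so spares glucose when fat is burned, was at 0.640, 0.474 and 0.334 FPKM with BSA and at 0.983, 1.01 and 0.987 with PA in Flox. The groups did not overlap, yet the difference missed the threshold (log2 0.43, adjusted p = 0.0624). Crat, carnitine acetyltransferase, was at 4.56 ± 0.019 FPKM with BSA and 6.85 ± 0.50 with PA (adjusted p = 0.0857), again without overlap. Cpt1a, the rate-limiting carnitine palmitoyltransferase, was at 1.64, 1.78 and 2.08 FPKM with BSA and at 2.15, 2.79 and 3.0 with PA (log2 0.36, adjusted p = 0.309). Its values rest on 135 to 227 reads per library in Flox. Several more genes lay higher in every PA library than in any BSA library without passing. Acadvl went from 30.5 ± 2.5 to 38.4 ± 2.5 FPKM (adjusted p = 0.394), Acads from 33.1 ± 1.3 to 43.1 ± 1.3 (0.34), Hadh from 4.75 ± 0.38 to 6.48 ± 0.63 (0.206) and Decr2 from 4.32 ± 0.073 to 6.33 ± 0.76 (0.12). Etfb, Acaa1a, Pex11a and the untested Bdh1 also lay higher without overlap. Other genes lay lower in every PA library than in any BSA library. These were Hadha (10.7 ± 1.2 to 9.13 ± 0.21 FPKM, adjusted p = 0.46), Etfa (23.8 ± 0.66 to 19.4 ± 0.56, 0.596), Vnn1 (1.10 ± 0.10 to 0.728 ± 0.23, 0.469) and the untested Acadsb (1.18 ± 0.20 to 0.607 ± 0.27). The share of all genes without overlap was not counted. The call of Cpt2 was lost without Flox PA library 2 (adjusted p = 0.0609) or 3 (0.0536), and that of Acadl without any of the 6 Flox libraries (0.112 to 0.26). The median SD of a gene was 0.104 and 0.114 on the log2 scale in the Flox groups, against 0.210 and 0.223 in the HKO groups that share the estimate of spread. Fitted on the 6 Flox libraries alone, 8 of the 28 genes were higher (Cpt2, Crat, Acadvl, Acadl, Acads, Hadh, Decr2 and Pdk4) and Etfa was lower, with 1543 of all genes called. Without both HKO libraries numbered 1, 7 of the 28 were higher, with 1356 of all genes called in place of 215.

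In HKO cells PA gave 2 higher genes and none lower among the 28, against 1.68% higher and 1.25% lower among all genes. The median log2 difference was 0.19 over the 28 genes and 0.00 over all. Acadl was at 15.3, 15.3 and 14.7 FPKM with BSA and at 33.2, 26.7 and 28.9 with PA. The PA libraries lay well above the BSA libraries, at 1.96-fold (log2 0.92, SE 0.12, adjusted p = 0.00133). Pdk4 was at 0.697, 0.668 and 0.759 FPKM with BSA and at 2.14, 2.71 and 2.22 with PA. This 3.33-fold difference was larger than the spread in either group (log2 0.97, SE 0.11, adjusted p = 0.000245), and it was called in all 17 alternatives run for it. Cpt2 was at 11.1, 13 and 14.8 FPKM with BSA and at 17.6, 17.7 and 20.5 with PA, without overlap, and missed the threshold (log2 0.49, adjusted p = 0.102). Cpt1a was at 1.29, 1.05 and 0.579 FPKM with BSA and at 1.42, 2.06 and 2.39 with PA, where the lowest PA library lay just above the highest BSA library (log2 0.59, adjusted p = 0.073). With only the 6 HKO libraries fitted, the adjusted p of Acadl was 0.0626. When both HKO libraries numbered 1 were left out, Cpt1a rose (log2 0.84, adjusted p = 0.00951), Etfa fell (log2 -0.42, adjusted p = 0.0421), and 3 genes were higher and 1 lower, with 679 of all genes called in place of 286.

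**Figure D2:**
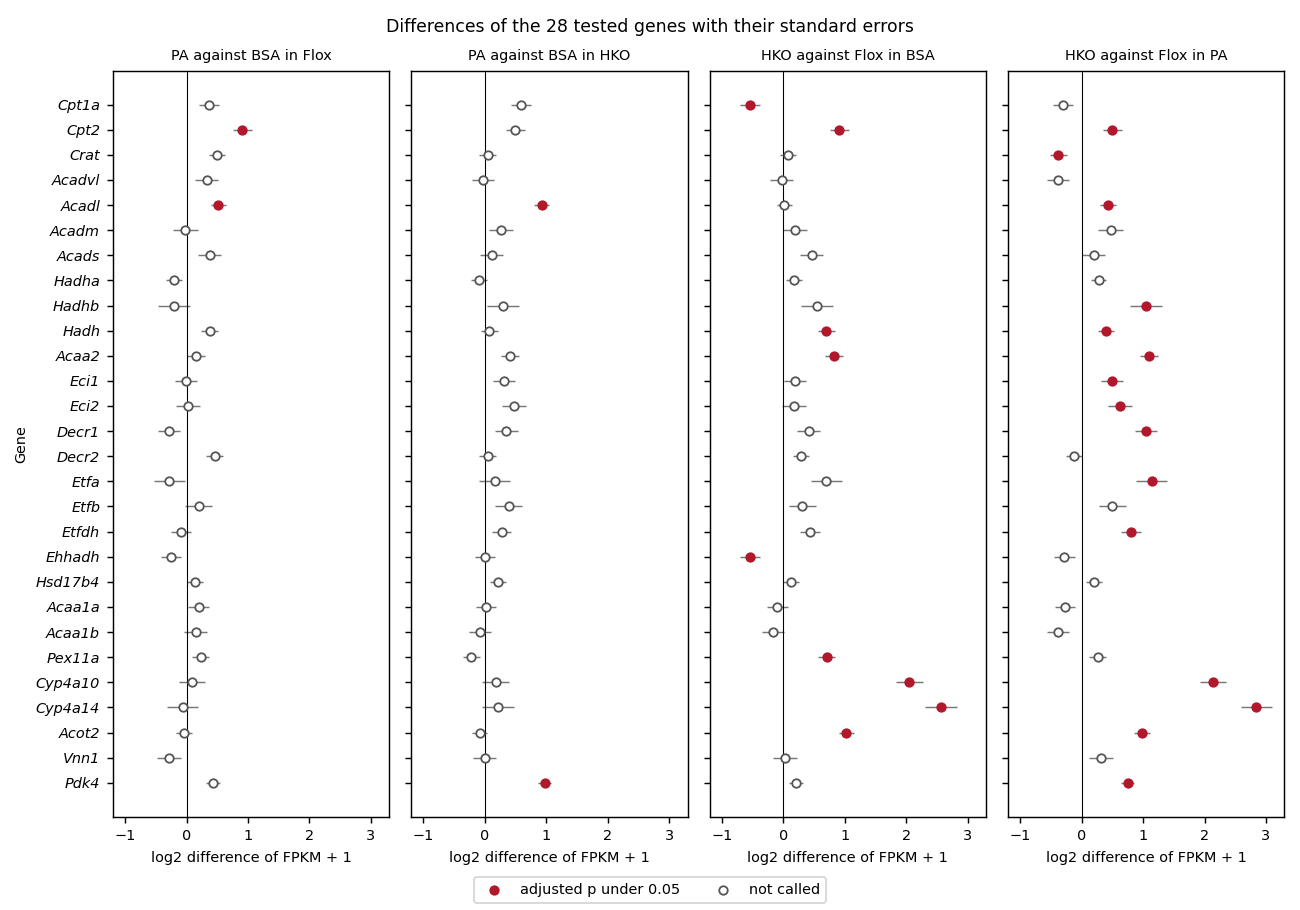
Log2 differences of FPKM + 1 (horizontal axis) for the 28 tested genes (vertical axis) in 4 comparisons, 1 panel each, with bars of 1 standard error. Filled red points have an adjusted p under 0.05: 2 in each PA panel, 9 for HKO against Flox with BSA and 15 for HKO against Flox with PA.

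With BSA, HKO cells differed from Flox cells in 9 of the 28 genes: 7 were higher (Cpt2, Hadh, Acaa2, Pex11a, Cyp4a10, Cyp4a14 and Acot2) and 2 lower (Cpt1a and Ehhadh). Among all genes 9.63% were higher and 10.8% lower. The median log2 difference was 0.25 over the 28 genes, 0.04 over all genes and 0.81 over the 11 hepatocyte markers, of which 5 were higher, while all 14 macrophage markers were lower (median log2 -4.25). With PA, 14 of the 28 were higher in HKO and Crat was lower, against 16.9% higher and 18.8% lower among all genes. The median log2 difference there was 0.45 over the 28 genes, 0.00 over all genes and 0.81 over the hepatocyte markers, of which 7 were higher, and all 14 macrophage markers were again lower (median log2 -3.72). Across the 9743 genes, which are not independent replicates, the log2 difference ran against gene length, with a Spearman correlation of -0.21 for HKO against Flox with BSA, -0.32 with PA, -0.13 for PA in Flox and -0.43 for PA in HKO. The median length was 3293 bases over all 32 genes of the set, tested or not, and 3630 over the 9743 tested genes. With that trend removed, 9 of the 28 genes were higher and 2 lower with BSA, and 15 were higher and 1 lower with PA. Of all 9743 genes, that fit called 2337 with BSA in place of 1994, and 3382 with PA in place of 3475. In bulk libraries fewer cells of a type and less RNA per cell cannot be told apart, and the part of cell makeup in the differences of the 28 genes was not tested.

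The omega-hydroxylases gave the largest differences among the 28 genes in both comparisons. Cyp4a14 was at 0.984, 1.09 and 1.68 FPKM in Flox with BSA and at 6.64, 15.7 and 17.2 FPKM in HKO with BSA. Its 3 HKO values lay above all Flox values, with library 1 the lowest of the 3, and the difference was 10.5-fold (log2 2.57, SE 0.25, adjusted p = 2.91e-06). The PA libraries read 1.14, 1.02 and 1.27 FPKM in Flox and at 15.6, 14.6 and 12.9 in HKO, 12.6-fold apart (log2 2.84, adjusted p = 1.07e-06). Cyp4a10 showed the same order at a higher level. It was at 4.19, 4.81 and 5.64 FPKM in Flox with BSA against 16.4, 28.2 and 27.1 in HKO with BSA (4.90-fold, log2 2.05, adjusted p = 5.95e-06). With PA it was at 4.39, 4.46 and 7.22 FPKM in Flox against 25.2, 31.0 and 23.5 in HKO (4.96-fold, log2 2.13, adjusted p = 4.13e-06). No Flox library reached any HKO library for either gene, and PA against BSA did not pass for either gene in either genotype (adjusted p from 0.654 to 0.926).

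Acot2, a mitochondrial acyl-CoA thioesterase, gave the same kind of pattern. It was at 5.12, 4.47 and 5.24 FPKM in Flox with BSA and at 10.8, 10.6 and 11.9 in HKO with BSA (2.25-fold, log2 1.03, adjusted p = 3.51e-05). Under PA it read 4.34, 4.95 and 4.97 FPKM in Flox and at 8.81, 10.99 and 11.6 in HKO (2.20-fold, log2 0.99, adjusted p = 5.45e-05). Its cytosolic paralog Acot1 was between 0.200 and 0.508 FPKM in Flox and between 0.152 and 0.270 in HKO, on 8 to 35 reads per library, and was not tested. Fitted with no filter on low values, Acot1 did not pass in HKO against Flox with BSA (log2 -0.20, adjusted p = 0.136) or with PA (log2 -0.23, adjusted p = 0.069). Vnn1, a pantetheinase and PPARA target, was at 1.10 ± 0.10 FPKM in Flox and 1.23 ± 0.68 in HKO with BSA and did not pass in any comparison.

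**Figure D3:**
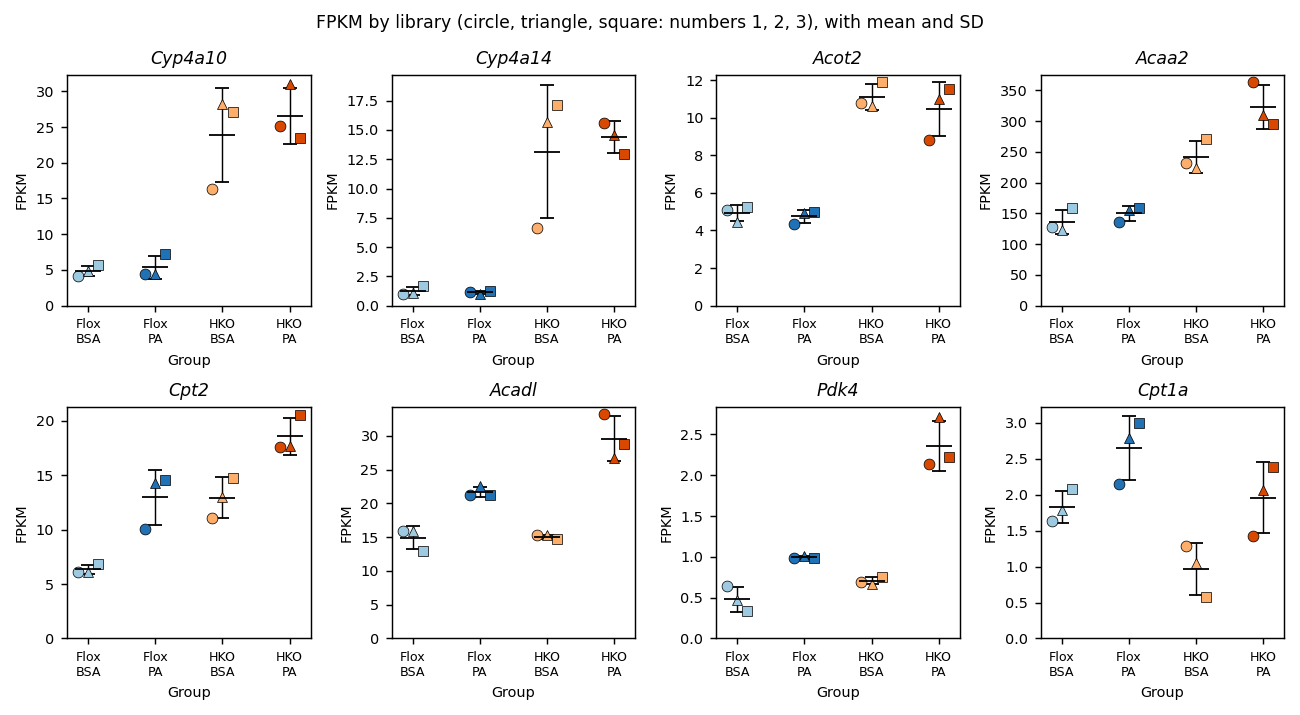
FPKM (vertical axis) of 8 genes in the 4 groups (horizontal axis), 1 panel per gene with an axis from 0. Circles, triangles and squares are libraries 1, 2 and 3, and horizontal bars give the mean with 1 SD. For Cyp4a10, Cyp4a14, Acot2 and Acaa2 the 6 HKO libraries lie above the 6 Flox libraries, while Pdk4 and Acadl are highest in HKO with PA.

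Of the carnitine genes, Cpt2 was higher in HKO with BSA and with PA, Cpt1a was lower with BSA and Crat was lower with PA. Cpt2 was 2.03-fold higher in HKO with BSA (log2 0.91, SE 0.15, adjusted p = 0.000607) and 1.43-fold higher with PA (log2 0.50, adjusted p = 0.0226). Cpt1a was lower in HKO with BSA, at 0.53 of the Flox level (log2 -0.54, SE 0.16, adjusted p = 0.0326), without overlap. With PA the Cpt1a groups overlapped and the difference did not pass (log2 -0.31, adjusted p = 0.152). Its HKO values with BSA rest on only 43 to 86 reads, and the call was lost without any 1 of Flox BSA 1, 2 or 3 or HKO BSA 2 or 3 (adjusted p from 0.0537 to 0.16). Crat did not pass with BSA (log2 0.07, adjusted p = 0.754) and was lower in HKO with PA (5.05 ± 0.64 against 6.85 ± 0.50 FPKM, log2 -0.38, adjusted p = 0.0412). That call was lost without any library of the 2 groups except HKO PA 3 (adjusted p from 0.0604 to 0.141), and also with the length trend removed (log2 -0.22, adjusted p = 0.17) or with the replicate block (adjusted p = 0.0586). The call of Cpt2 with PA was lost without Flox PA 1 (adjusted p = 0.107) or HKO PA 3 (0.0566).

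Of the 4 tested acyl-CoA dehydrogenases, which differ in the chain length they take, Acadl passed between genotypes with PA. It was at 14.9 ± 1.7 FPKM in Flox and 15.1 ± 0.33 in HKO with BSA, where the groups overlapped (log2 0.02, adjusted p = 0.935). With PA the HKO libraries were higher at 29.6 ± 3.3 against 21.7 ± 0.76 FPKM (log2 0.43, adjusted p = 0.0176), a call lost without Flox PA 1, Flox PA 3 or HKO PA 1 (adjusted p from 0.0531 to 0.0624). Acadm, the medium-chain enzyme, was at 14.6 ± 1.0 FPKM in Flox and 21.2 ± 6.5 in HKO with PA (adjusted p = 0.0793), and its HKO libraries read 28.6, 18.3 and 16.5. Acadvl, the very-long-chain enzyme, was at 38.4 ± 2.5 FPKM in Flox and 29.8 ± 7.9 in HKO with PA (adjusted p = 0.115), and Acads, the short-chain enzyme, was at 43.1 ± 1.3 and 49.8 ± 5.2 (adjusted p = 0.427). Acadsb was between 0.404 and 1.41 FPKM in the 12 libraries and was not called in any comparison when fitted with no filter.

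At the following matrix steps, Acaa2 was at 128, 122 and 158 FPKM in Flox with BSA and at 231, 223 and 271 in HKO with BSA. With PA it was at 136, 156 and 159 FPKM in Flox and at 363, 310 and 295 in HKO. All HKO values lay above all Flox values, and the differences were 1.78-fold (log2 0.83, adjusted p = 0.000839) and 2.15-fold (log2 1.10, adjusted p = 6.63e-05). Hadh, the short-chain hydroxyacyl-CoA dehydrogenase, rose with BSA (8.41 ± 1.4 against 4.75 ± 0.38 FPKM, log2 0.70, adjusted p = 0.00203) and with PA (8.84 ± 0.70 against 6.48 ± 0.63 FPKM, log2 0.40, adjusted p = 0.0381). The PA call of Hadh was lost without Flox PA 1 or 3 or HKO PA 1 or 3 (adjusted p from 0.0713 to 0.125).

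The subunits of the trifunctional protein were printed above with the stretch they share. Hadhb, the thiolase subunit, was at 4.04, 4.74 and 4.91 FPKM in Flox with PA and at 11.8, 9.69 and 10.1 in HKO with PA (2.31-fold, log2 1.05, SE 0.26, adjusted p = 0.00804). Hadha, the hydratase and dehydrogenase subunit, was at 9.02, 9.01 and 9.38 FPKM in Flox and at 10.6, 10.96 and 12.2 in HKO (1.23-fold, log2 0.27, SE 0.13, adjusted p = 0.114). Both pairs of groups were apart, but only Hadhb passed, and the difference between the subunits was not tested. With BSA Hadhb read 4.48, 10.96 and 11.7 FPKM in HKO against 4.38, 4.91 and 7.29 in Flox, so that HKO library 1 sat at the Flox level (log2 0.55, adjusted p = 0.167). Leaving out both HKO libraries numbered 1, Hadhb rose with BSA (log2 0.94, adjusted p = 0.000578) and Hadha with PA (log2 0.31, adjusted p = 0.0367).

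**Figure D4:**
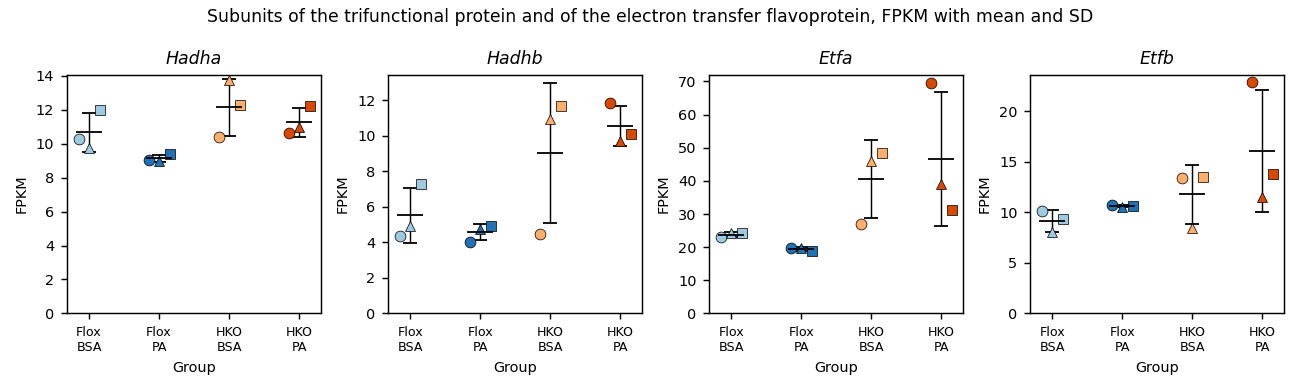
FPKM (vertical axis) of Hadha and Hadhb, subunits of the trifunctional protein, and of Etfa and Etfb, subunits of electron transfer flavoprotein, in the 4 groups (horizontal axis), with axes from 0. Circles, triangles and squares are libraries 1, 2 and 3, and bars give the mean with 1 SD. HKO library 1 is lowest for Hadhb with BSA at 4.48 FPKM and highest for Etfa with PA at 69.6 FPKM.

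Of the 3 genes of electron transfer flavoprotein and its dehydrogenase, Etfa and Etfdh were higher in HKO with PA. Etfa, the alpha subunit, was at 19.8, 19.7 and 18.8 FPKM in Flox with PA and at 69.6, 39.0 and 31.3 in HKO with PA. The groups did not overlap, with HKO library 1 far above the others, and the difference was 2.40-fold (log2 1.14, SE 0.25, adjusted p = 0.00381). With BSA it was at 23.0, 24.1 and 24.2 FPKM in Flox and at 27.1, 46.0 and 48.5 in HKO (log2 0.70, adjusted p = 0.0686). Without both HKO libraries numbered 1 Etfa passed in both settings (log2 0.96 with BSA, adjusted p = 1.31e-05, and 0.82 with PA, adjusted p = 5.74e-05). Etfdh, which hands the electrons to ubiquinone, was at 1.53 ± 0.28 FPKM in Flox and 3.42 ± 0.74 in HKO with PA (log2 0.80, adjusted p = 0.00205). Etfb, the beta subunit, was at 10.6 ± 0.088 and 16.1 ± 6.0 FPKM and did not pass (log2 0.50, adjusted p = 0.0915).

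Of the 4 auxiliary enzymes for unsaturated fatty acids, 3 were higher in HKO with PA, and with BSA their log2 differences were 0.17 to 0.41 (adjusted p from 0.138 to 0.588). Decr1, the mitochondrial dienoyl-CoA reductase, was at 6.96, 8.17 and 8.56 FPKM in Flox with PA and at 23.3, 15.04 and 14.7 in HKO with PA (2.24-fold, log2 1.04, adjusted p = 0.000799). Its groups were well apart, with HKO library 1 highest. Eci1 was at 60.7 ± 4.5 and 87.5 ± 20 FPKM (log2 0.50, adjusted p = 0.0429), and Eci2, another enoyl-CoA isomerase, at 2.62 ± 0.45 and 4.60 ± 0.96 FPKM (log2 0.63, adjusted p = 0.0244). The call of Eci1 was lost without any Flox PA library or HKO PA 1 (adjusted p from 0.0667 to 0.174), and also with the length trend removed (log2 0.29, adjusted p = 0.0836). The call of Eci2 was lost without Flox PA 1 or HKO PA 1 (adjusted p = 0.0924 and 0.1). Decr2, the peroxisomal reductase, did not pass (6.33 ± 0.76 against 5.71 ± 0.44 FPKM, adjusted p = 0.496).

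Of the 5 peroxisomal genes, Pex11a was higher and Ehhadh lower in HKO with BSA. Ehhadh, the peroxisomal bifunctional enzyme and a known PPARA target, was at 10.3, 9.79 and 13.4 FPKM in Flox with BSA and at 5.62, 7.98 and 8.59 in HKO with BSA. All HKO values lay below the Flox values (log2 -0.54, SE 0.17, adjusted p = 0.0338), a call lost without Flox BSA 1, Flox BSA 3 or HKO BSA 1 (adjusted p from 0.0659 to 0.136). Pex11a, which drives peroxisome division, was at 4.17, 3.96 and 4.86 FPKM in Flox and at 7.27, 8.11 and 7.72 in HKO with BSA (1.78-fold, log2 0.71, adjusted p = 0.00197). With PA the Pex11a groups overlapped (5.23 ± 0.16 against 6.53 ± 1.3 FPKM, adjusted p = 0.157). Hsd17b4, the other bifunctional enzyme, and the thiolases Acaa1a and Acaa1b did not pass in any comparison with all 12 libraries in the main fit. The group means of Hsd17b4 ran between 24.4 ± 1.8 FPKM in Flox with BSA and 31.1 ± 2.1 in HKO with PA, and those of Acaa1a between 24.6 ± 2.7 in HKO with PA and 29.9 ± 0.57 in Flox with PA. The highest of these, Acaa1b, was at 109 ± 7.6 FPKM in Flox and 83.1 ± 6.9 in HKO with PA, without overlap (log2 -0.39, adjusted p = 0.104), and with both HKO libraries numbered 1 left out it was lower with BSA (log2 -0.42, adjusted p = 0.00737) and with PA (log2 -0.38, adjusted p = 0.0117). In that same fit Acaa1a was also lower with BSA (log2 -0.31, adjusted p = 0.0366) and with PA (log2 -0.33, adjusted p = 0.0291). Pex11a was higher there with PA as well (log2 0.40, adjusted p = 0.00843).

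Pdk4 did not pass between genotypes with BSA (0.482 ± 0.15 against 0.708 ± 0.046 FPKM, adjusted p = 0.206) and was higher in HKO with PA (2.36 ± 0.31 against 0.994 ± 0.015 FPKM, 2.38-fold, log2 0.75, adjusted p = 0.000155). Ppara was at 0.654, 0.601 and 0.553 FPKM in Flox with BSA and at 1.43, 1.19 and 0.921 in HKO with BSA. With PA it was at 1.04, 0.894 and 0.637 FPKM in Flox and at 1.48, 1.47 and 1.12 in HKO. The HKO libraries lay above the Flox libraries of the same label, on 38 to 85 reads per library over all 12. Fitted with no filter among 23820 genes, Ppara was higher in HKO with BSA (log2 0.44, adjusted p = 0.0411) and did not pass with PA (log2 0.34, adjusted p = 0.0858). Bdh1 was between 0.591 and 1.30 FPKM and passed in no comparison with that fit.

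Leaving out libraries moved the counts between genotypes. Without both HKO libraries numbered 1, 12 of the 28 genes were higher and 4 lower with BSA, where 3579 of all genes were called in place of 1994. With PA 16 were higher and 3 lower, where 3668 of all genes were called in place of 3475. Without Flox PA library 1, 9 of the 28 genes were called with PA in place of 15, and 2781 of all genes in place of 3475. Across every alternative run, 7 of the 9 calls with BSA (all but Cpt1a and Ehhadh) and 9 of the 15 with PA (Hadhb, Acaa2, Decr1, Etfa, Etfdh, Cyp4a10, Cyp4a14, Acot2 and Pdk4) were called each time, with the same sign. Limma-voom on the computed reads did not call Cpt2 (log2 0.37, adjusted p = 0.104), Acadl (0.28, 0.11), Hadh (0.29, 0.143) or Eci1 (0.35, 0.104) with PA. With no filter on low values Cpt1a (adjusted p = 0.0775) and Ehhadh (0.0612) were not called with BSA, nor Crat (0.0571), Hadh (0.0543), Eci1 (0.0943) and Eci2 (0.0717) with PA.

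The interaction asks whether PA acted differently in HKO than in Flox. None of the 28 genes passed in limma or in limma-voom on the computed reads, against 0.164% of all genes higher and 0.103% lower, and 5 of the 28 had an unadjusted p under 0.05, against 17.4% of all genes. The lowest adjusted p belonged to Pdk4 (log2 0.54, SE 0.15, adjusted p = 0.129), whose PA difference was 0.43 in Flox and 0.97 in HKO. Decr1 had a difference of 0.63 (SE 0.26, adjusted p = 0.249) and Cpt2 one of -0.41 (SE 0.22, adjusted p = 0.33). Pdk4 and Cpt2 each passed for PA in 1 genotype, and their PA differences were not shown to differ between genotypes.

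**Figure D5:**
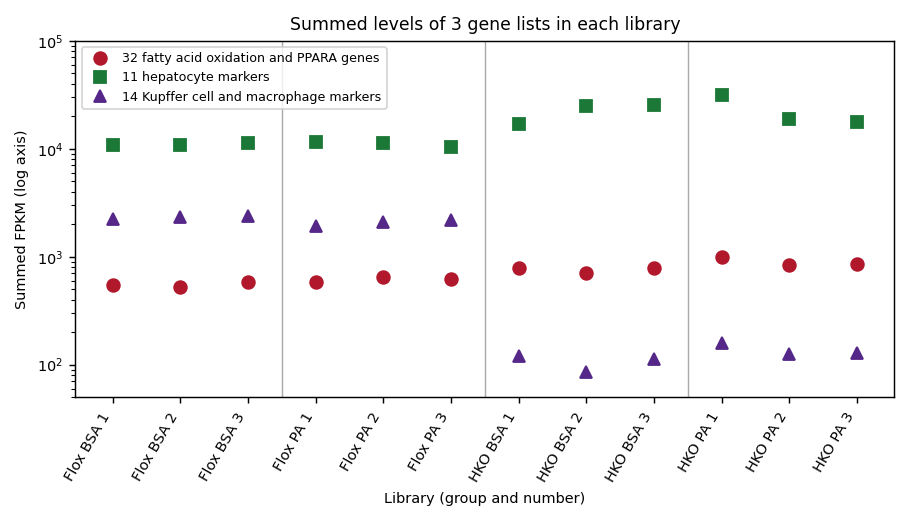
Summed FPKM (vertical log axis) of the 32 genes, 11 hepatocyte markers and 14 Kupffer cell and macrophage markers in each of the 12 libraries (horizontal axis), 1 point per library and list. The 32 genes sum to between 529 and 1002 FPKM, while the macrophage markers are between 1929 and 2363 FPKM in Flox and between 86.1 and 158 in HKO.

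Genes around the 32 were read from lists of the same pathways. The counts read against shares over all genes of 9.63% higher and 10.8% lower in HKO with BSA, and 16.9% and 18.8% with PA. Of 17 tested cofactors and regulators of PPARA, 1 rose with PA in either genotype, 2 were higher and 1 lower in HKO with BSA, and 2 were higher and 4 lower with PA (median log2 0.04 and -0.21), which is near those shares. Creb3l3, a liver transcription factor that works with PPARA, rose with PA in both genotypes (log2 1.51 in Flox and 1.67 in HKO, adjusted p = 0.000328 and 8.97e-05). It was also higher in HKO with BSA (9.37, 9.50 and 9.28 FPKM in Flox against 22.5, 16.7 and 18.6) and with PA (log2 1.11), as was Pparg, a sister receptor (log2 0.90 and 0.96). Lower in HKO were the coactivator Ncoa1 (log2 -0.46 with BSA and -0.73 with PA) and, with PA, the partner receptor Rxra (log2 -0.70). Among 8 other carnitine and malonyl-CoA genes, 1 was lower in HKO with BSA, and 1 was higher and 2 lower with PA (median log2 0.22 and 0.11). Acaca, which makes the malonyl-CoA that blocks CPT1, was lower in HKO (log2 -0.72 with BSA and -0.99 with PA), and its mitochondrial form Acacb was lower with PA (log2 -0.86). The carnitine carrier Slc25a20 rose with PA in HKO (log2 0.51, adjusted p = 0.0472), and Aldh9a1, of carnitine synthesis, rose with PA in Flox (log2 0.70). Tmlhe, another gene of carnitine synthesis, was higher in HKO with PA (log2 0.63, adjusted p = 0.0391), though its groups overlapped.

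Of 16 other mitochondrial oxidation genes, 5 were higher and none lower in HKO with BSA, and 5 were higher and 1 lower with PA (median log2 0.35 and 0.29). Acot13, a mitochondrial thioesterase, was among the higher genes in both (log2 0.86 and 1.30), as was Gcdh, of lysine breakdown (log2 0.74 and 0.55). Of 6 ketogenesis genes, 3 were higher in HKO with BSA and 2 with PA (median log2 0.63 and 0.32). Bdh2, a cytosolic relative of the ketone body dehydrogenase Bdh1, was at 0.830 ± 0.20 FPKM in Flox and 2.11 ± 0.29 in HKO with BSA (log2 0.77, adjusted p = 0.000473). With PA its level was 0.859 ± 0.10 and 3.04 ± 0.42 FPKM (log2 1.12, adjusted p = 1.24e-05), and no HKO library overlapped a Flox library in either setting.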

How the data were processed

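The deposited table holds FPKM values for 12 libraries, which the authors computed per kilobase of gene length and scaled to a library size of their own. The build is GRCm38 (mm10), per the submitters' processing notes. The sources used here do not name the aligner, the counter or the annotation. FPKM times length was a whole multiple of 1 step within 0.01 for 100% of the low values checked, from which reads per gene were computed.

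A mean of 1 FPKM or more was required, and genes were tested on log2(FPKM + 1) with limma 3.58.1 in R 4.3.3, 4 group means, a variance prior with a trend and two-sided p-values adjusted by Benjamini-Hochberg over all 9743 genes in each of 5 comparisons. Alternatives were a pseudocount of 0.1, no filter, a filter at 5 FPKM, quantile and trimmed mean scaling, limma-voom, only the groups compared, a replicate block, a robust prior, array weights per group, removal of a length trend, and leaving out each library or both HKO libraries numbered 1. The 32 genes and all lists were chosen with earlier results of these data known. Named genes are all 32, and of each other list up to 4 genes per comparison, those with the largest absolute log2 difference among the genes that passed. Promoters come from RefSeq (GRCm38.p6), and 28 of the 32 genes have the coordinates of GENCODE M21. Values of some single genes are left out of the text.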

Additional observations from a re-analysis of the deposited data

Results flagged for a closer look

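One gene of the wider PPARA target list differed in its PA response between genotypes by the interaction test. G0s2, an inhibitor of the triglyceride lipase ATGL, was at 66.2, 75.1 and 61.5 FPKM in Flox with BSA and at 34.7, 31.0 and 27.99 in Flox with PA (log2 -1.09, adjusted p = 0.00788). In HKO it was at 29.9, 16.7 and 22.2 FPKM with BSA and at 47.9, 35.4 and 37.8 with PA (log2 0.82, adjusted p = 0.0346). It fell in Flox and rose in HKO, without overlap in either, and the difference of the 2 responses was 1.91 on the log2 scale (SE 0.27, adjusted p = 0.0129 in limma). Without Flox PA library 2 the interaction test called 0 of all genes, G0s2 included, in place of 26. With each library left out in turn, the count over all genes ran from 0 to 265. The G0s2 value of Flox PA library 2, 31.0 FPKM, lay between those of Flox PA libraries 1 and 3. Why the call was lost was not tested. G0s2 was also lower in HKO than in Flox with BSA (log2 -1.55, adjusted p = 2.63e-05).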

How the results depend on the processing

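For PA in Flox, where 2 of the 28 genes were called, the count was 1 with a pseudocount of 0.1, with limma-voom, with a robust prior and with the replicate block, 4 with quantile scaling, 8 with array weights per group, 9 with only the groups compared, 7 without both HKO libraries numbered 1, and 0 to 1 with each Flox library left out. Over all genes 215 were called in the main fit, 287 with quantile scaling and 1820 with array weights per group. That count was 1543 with only the groups compared, 1356 without both HKO libraries numbered 1, and 64 to 169 with each Flox library left out. For PA in HKO (2 called) it was 1 with a filter at 5 FPKM, 1 with only the groups compared, 4 without both HKO libraries numbered 1, and 2 to 3 with each library left out. Over all genes these settings called 230, 42, 679 and 129 to 776, in place of 286. For HKO against Flox with BSA (9 called) it was 16 without both HKO libraries numbered 1, and the split of higher and lower calls went from 7 and 2 to 9 and 1 with quantile scaling and to 8 and 0 with no filter. Over all genes these settings called 3579, 2312 and 2714, in place of 1994. For HKO against Flox with PA (15 called) it was 9 to 15 with each library left out, the 9 without Flox PA 1, and limma-voom gave 10 higher and 3 lower. Over all genes 2280 to 4203 were called with each library left out and 3664 with limma-voom, in place of 3475. Limma-voom moved the median of all genes to -0.13 with BSA and -0.16 with PA. The interaction stayed at 0 in every alternative. Etfa changed sign for PA in HKO, from 0.16 to -0.42 (adjusted p = 0.0421), without both HKO libraries numbered 1. The causes of these moves were not tested. Same-numbered libraries of BSA and PA did not deviate together in every pair (correlations of 0.203, -0.015 and 0.316 in Flox and -0.243, 0.349 and -0.484 in HKO), so the numbers were not taken as pairs. Differently numbered libraries gave -0.300 to 0.159 in Flox and -0.211 to 0.509 in HKO, the highest for HKO BSA 3 with HKO PA 1. The HKO libraries numbered 1 were left out together but likewise not taken as a pair. With the replicate block 1, 2, 9, 15 and 0 of the 28 genes were called in the 5 comparisons, and 110, 113, 1988, 3444 and 3 of all genes. In HKO against Flox with PA the block lost Crat (adjusted p = 0.0586) and gained Etfb (0.0477), for 15 higher and 0 lower. Depth limits Acot1, with 8 to 35 reads per library, and Cpt1a in HKO with BSA, with 43 to 86.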

Other observations

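Of 34 tested peroxisomal genes outside the 32, 7 were higher and 1 lower in HKO with BSA, and 10 were higher and 1 lower with PA (median log2 0.18 and 0.09, against 0.04 and 0.00 over all genes). Over all genes 9.63% were higher and 10.8% lower with BSA, and 16.9% and 18.8% with PA. Slc27a2, which activates very-long-chain fatty acids, was at 10.2 ± 1.6 FPKM in Flox and 17.1 ± 4.0 in HKO with BSA (log2 0.68, adjusted p = 0.0107). Pex2, of peroxisomal protein import, was at 10.4 ± 0.64 FPKM in Flox and 21.9 ± 4.8 in HKO with PA (log2 0.99, adjusted p = 0.00172).

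Of 37 other tested PPARA targets, 9 were higher and 9 lower in HKO than in Flox with either BSA or PA, with a median log2 of 0.08 and -0.01. Plin2, which coats lipid droplets, rose with PA in Flox (81.4 ± 11 to 322 ± 47 FPKM, log2 1.97) and in HKO (207 ± 29 to 780 ± 15 FPKM, log2 1.92). Fgf21, a fasting hormone and PPARA target, fell with PA in Flox (36.7 ± 0.93 to 14.2 ± 1.1 FPKM, log2 -1.31) and in HKO (37.8 ± 5.3 to 20.96 ± 2.4 FPKM, log2 -0.82). Ucp2, a mitochondrial carrier, was at 9.04 ± 0.65 FPKM in Flox and 0.565 ± 0.25 in HKO with BSA (log2 -2.69). Ucp2 is also expressed in macrophages, whose markers were lower in the same libraries by a median log2 of -4.25, and their part in its difference was not tested.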
